A study of Mus musculus with 6 samples.

Results

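The comparison described here sets a glioma grown in an old mouse brain after NMN against a glioma of the same cell line grown in a young mouse brain. Each side is 1 RNA-seq library, so 2 of the 6 libraries of the study enter the comparison itself. The labels write NMN without spelling it out; it usually stands for nicotinamide mononucleotide, from which cells make the cofactor NAD+. The young tumor carries the group label Young, and the other the group label NMN-before-Tumor with "Old Pre" in its title, read here as an old host given NMN before the tumor and called the NMN-before tumor. Both hosts were C57BL/6 mice, and both tumors came from the mouse glioma-initiating cell (GIC) line ms7080, placed in the brain by intracranial injection. The tissue was taken once the mice showed symptoms, and the time from injection to collection is not stated. A tumor from an old mouse (the old tumor) is given beside most results as a side value, as are, for some, GIC cultures set up from young, old and NMN-before tumors. The sources used here do not state ages, the dose and duration of NMN, sex, or how many mice went into each library. All 6 libraries rest on 1 cell line.

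The deposited tumor table has 46951 rows, and the 14335 rows that reached at least 1 FPKM in 1 of its 3 tumors were compared. FPKM is the number of sequenced fragments per kilobase of transcript and mega (M) fragments, a level corrected for length and depth. Differences are log2(FPKM + 1) in the NMN-before tumor minus log2(FPKM + 1) in the young tumor, a scale that understates the difference of low genes. A difference of at least 1 in size is called 2-fold. It is a rule of size between 2 libraries: without replicates there is no spread between animals to set it against, and no test was made. At the edge of the row filter, Klk1b22 entered with a highest level of 1.001 FPKM and Chsy3 stayed out with 0.997 FPKM.

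Gliomas grow among the neurons, oligodendrocytes, astrocytes, microglia and vessels of the brain, and a piece of tumor tissue holds RNA of all of them as well as of the tumor cells. Glioma cells of the proneural kind share transcription factors such as OLIG2 and SOX10 with oligodendrocyte precursors, the dividing cells that give rise to myelin-forming oligodendrocytes. Interferons act on tumor and host cells alike through receptors on their surface, which switch on antiviral genes, large GTPases and the machinery of antigen presentation. NMN is converted to NAD+ by NMNAT enzymes, and sirtuins and PARP enzymes consume NAD+. In such bulk tissue, fewer cells of a type and less RNA per cell cannot be told apart.

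The depth recovered from the FPKM values was 14.9 M fragments in the young, 11.2 in the old and 18.5 in the NMN-before tumor. At these depths, 5 FPKM of a transcript with 1 kb of effective length has a 95% exact Poisson interval of 3.93 to 6.27 in the young and of 4.03 to 6.13 in the NMN-before tumor. A floor of 3 fragments is 0.201 FPKM in the young and 0.162 FPKM in the NMN-before tumor for such a transcript. Intervals and floors cover counting error only. The tissue carried the 4 glioma genes named next in both libraries. Olig2 was at 198 FPKM in the young and 160.1 FPKM in the NMN-before tumor, Sox2 at 77.0 and 70.5, Pdgfra (a row shared with Mir7025) at 72.6 and 70.1, and the proliferation marker Mki67 at 35.6 and 33.9. Not all such genes were level. Sox10 was at 36.3 FPKM in the young and 7.30 FPKM in the NMN-before tumor, and 13 of 16 proneural genes were lower.

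The NMN-before tumor was close to the young tumor in most rows and apart from it mainly upward. The median difference over the 14335 rows was -0.01, and 84.5% of rows lay within 0.5 of 0 on the log2 scale. The 2-fold rows numbered 400 higher in the NMN-before tumor, which is 2.79% of the rows, and 140 lower, which is 0.977%. Among the 11951 rows of 1 protein-coding gene, 267 (2.23%) were 2-fold higher and 54 (0.452%) 2-fold lower. Higher by any amount were 48.8% of all rows and 49.2% of the coding rows, so the surplus of higher rows was in the tail and not in the middle. Rows listed at 0 in 1 of the 2 libraries made up 53 of the higher and 54 of the lower rows, but only 3 of the coding ones.

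**Figure D1:**
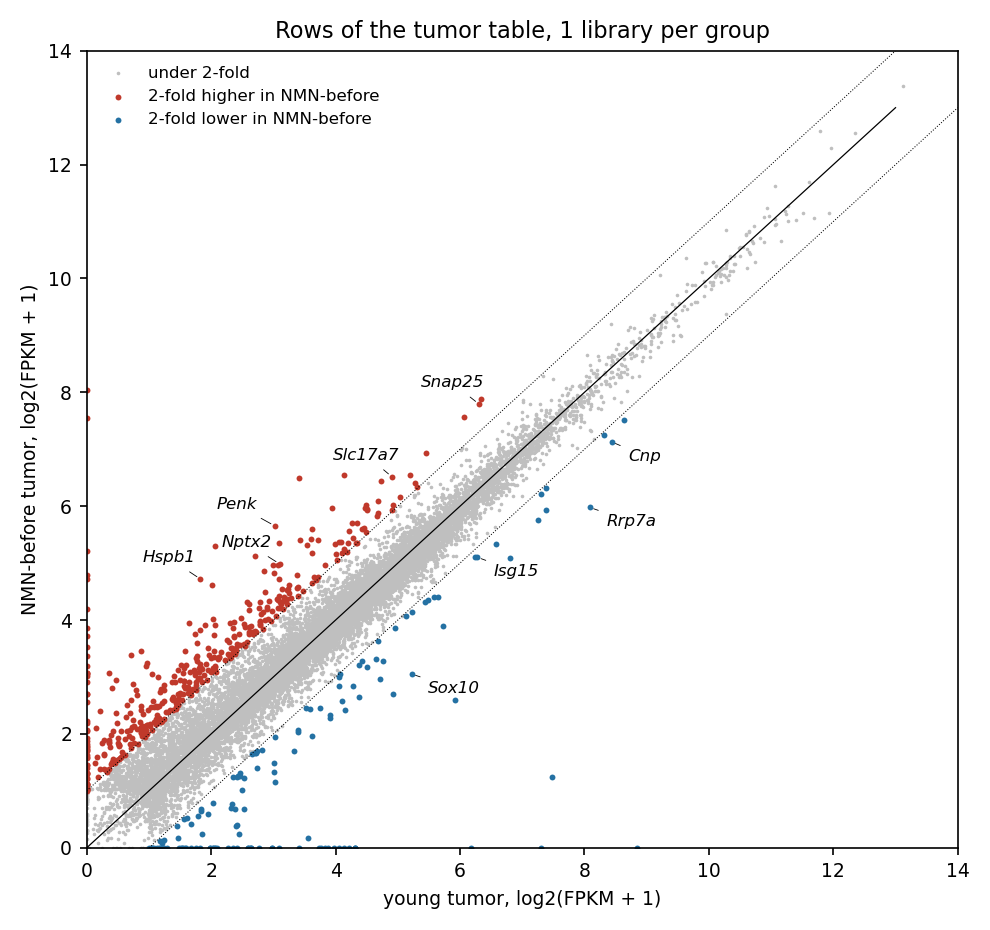
Levels of the 14335 compared rows in the young tumor (horizontal axis) and the NMN-before tumor (vertical axis), both as log2(FPKM + 1), 1 library each; the solid line marks equal levels and the dotted lines a 2-fold difference. Red points are the 400 rows 2-fold higher and blue points the 140 rows 2-fold lower in the NMN-before tumor; Hspb1, Penk and Snap25 stand above the band, and Sox10, Rrp7a, Cnp and Isg15 below it.

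Gene lists separated the differences by cell type and pathway. Of 58 lists, 9 hold genes of neurons, and these 9 together named 163 different genes, of which 147 were measured on a row of their own. Some genes, such as Penk, are on more than 1 of the 9 lists. The counts of single lists given below therefore partly repeat the same genes. In the NMN-before tumor 133 of the 147 were higher and 14 lower than in the young tumor, 52 were 2-fold higher and none was 2-fold lower, with a median of 0.78. The 3 lists of interferon-stimulated genes, GBP and IRG GTPases, and MHC class I genes went the other way. Of their 57 measured genes 1 was higher and 56 were lower, 5 of them 2-fold, with a median of -0.58. The oligodendrocyte, oligodendrocyte precursor and proneural lists had 10 of 45 genes higher and 35 lower, 2 and 6 of them 2-fold, with a median of -0.36. Over all genes of any list, 477 of 851 were higher. The medians of the old tumor against the young one over the same 3 groups of lists were 0.23, -0.24 and -0.12. Both differences use the same young library, so an odd value in it moves both.

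**Figure D2:**
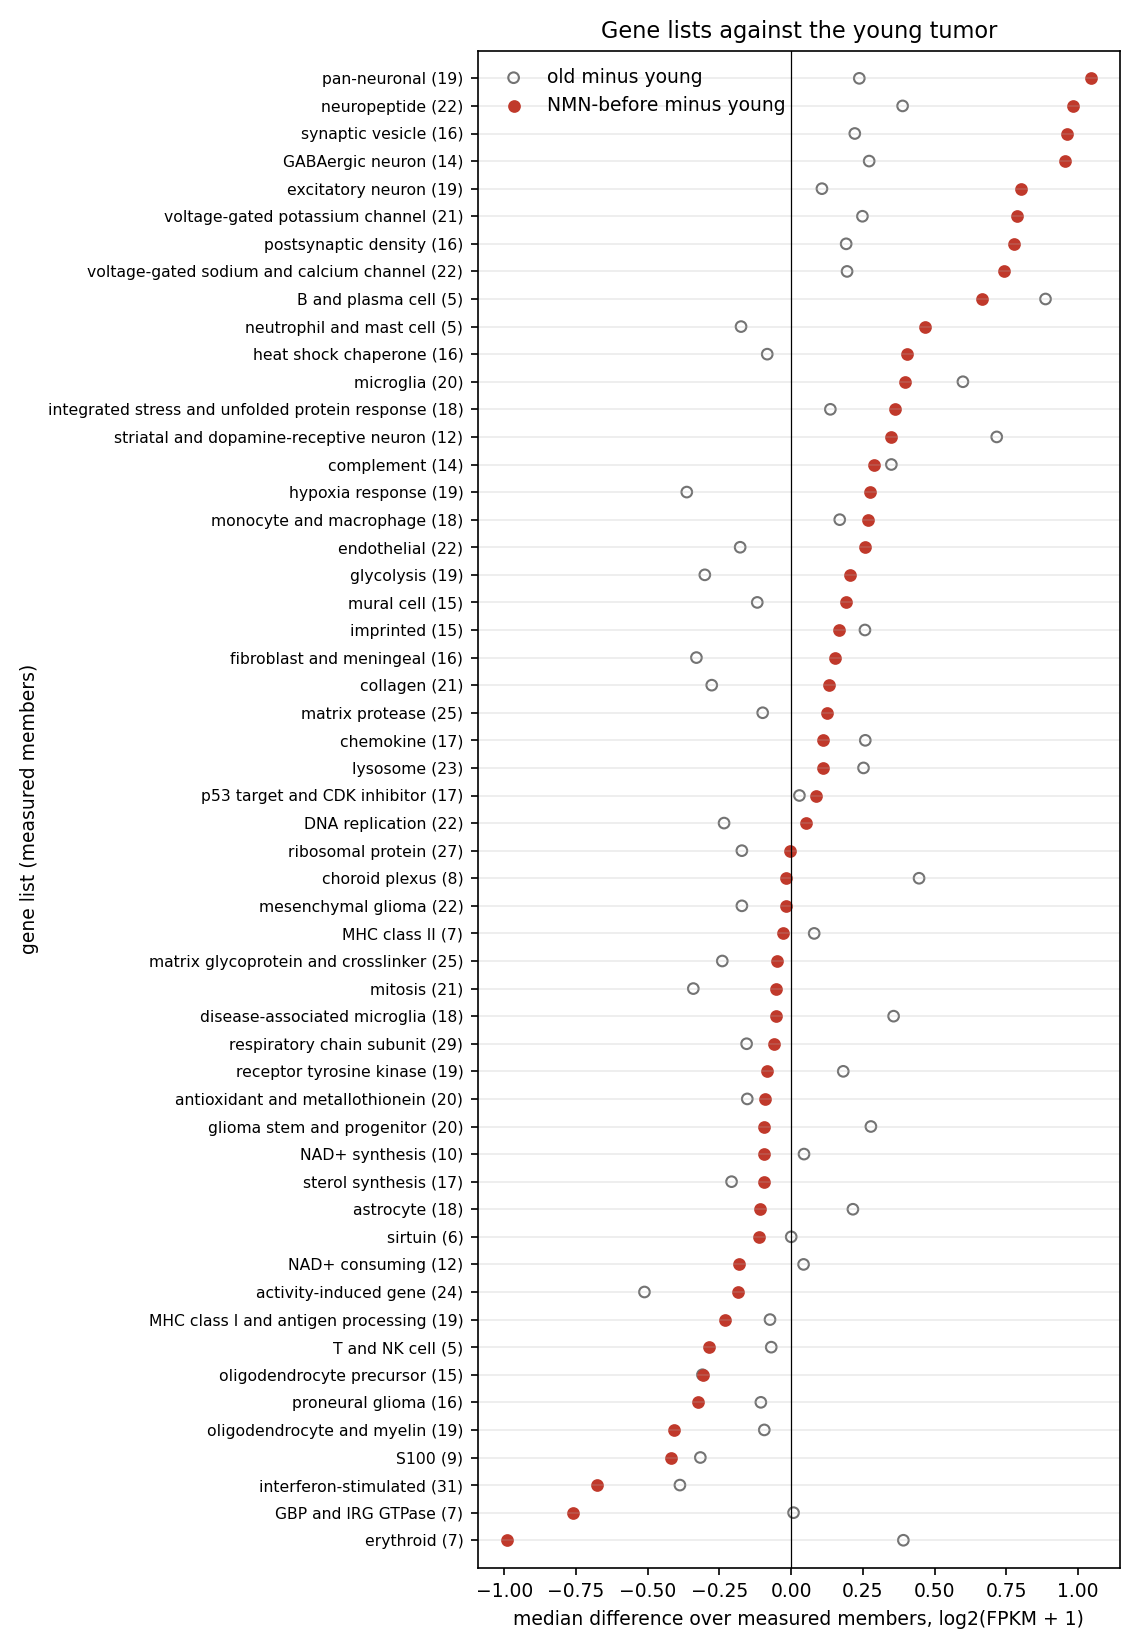
Median difference from the young tumor on the log2(FPKM + 1) scale (horizontal axis) over the measured members of each gene list (vertical axis, number of members in parentheses), for lists with at least 5 measured members; filled points are NMN-before minus young and open points old minus young, each 1 library against 1. Neuron lists lead at the top, with pan-neuronal genes at 1.04 in the NMN-before and 0.24 in the old tumor, and the erythroid, GBP and IRG, and interferon-stimulated lists stand at the bottom.

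Genes used by nearly all neurons were higher in the NMN-before tumor. Of 19 measured pan-neuronal genes 18 were higher, 11 of them 2-fold, and the median was 1.04. Snap25, a protein of the synaptic vesicle fusion machinery, was at 78.0 FPKM in the young, 92.1 in the old and 221 in the NMN-before tumor. Rbfox3, the gene of the neuronal nuclear antigen NeuN, was at 6.48, 8.45 and 17.7 FPKM in the same order. In both genes the old tumor sat close to the young one and the NMN-before tumor stood alone. The neurofilament genes Nefl (6.62, 10.1 and 19.2 FPKM) and Nefm (4.37, 4.34 and 11.03 FPKM) had the NMN-before tumor highest too. Map2, a microtubule protein named after its values were seen, was the 1 lower member, at 134.7 FPKM in the young, 134.4 in the old and 127 in the NMN-before tumor.

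Neurons that use glutamate were among the groups furthest from the young tumor. In the excitatory neuron list 18 of 19 measured genes were higher, 8 of them 2-fold, with a median of 0.80 against 0.11 in the old tumor. Slc17a7, the vesicular glutamate transporter of cortical neurons, was at 28.9 FPKM in the young, 23.9 in the old and 90.8 in the NMN-before tumor, a 3.07-fold difference from the young tumor on the FPKM + 1 scale. Nrn1, a secreted neurite growth factor, was at 6.22, 5.46 and 28.0 FPKM. Camk2a, the kinase of glutamatergic synapses, was at 37.8, 43.1 and 83.6 FPKM, and the neuropeptide gene Cck at 20.6, 8.90 and 47.3 FPKM. In Slc17a7, Nrn1 and Cck the old tumor was below the young one, so the NMN-before tumor differed from the young tumor in the opposite direction to the old tumor. Neurod6, a transcription factor of cortical projection neurons, was low in all libraries, at 1.13, 0.971 and 3.63 FPKM.

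Inhibitory neurons showed the same direction with a different place for the old tumor. In the GABAergic list 11 of 14 measured genes were higher, 7 of them 2-fold, with a median of 0.95 beside 0.27 in the old tumor. Taken directly against the old tumor, the median difference of the NMN-before tumor was only 0.06. The median level was 7.28 FPKM in the old and 5.65 FPKM in the NMN-before tumor. The peptide genes Npy (11.3, 12.9 and 47.5 FPKM in the young, old and NMN-before tumors) and Sst (18.2, 27.7 and 51.3 FPKM) stood highest in the NMN-before tumor. Gad1, which encodes the main GABA-synthesizing enzyme, was at 9.39, 20.2 and 26.9 FPKM. Its relative Gad2 was at 1.96, 8.82 and 6.66 FPKM, and Slc32a1, the vesicular GABA transporter, at 1.98, 7.63 and 6.04 FPKM. For Gad2 and Slc32a1 the old tumor was above the NMN-before one, and both were above the young one. Pvalb, a calcium buffer of fast-spiking interneurons, was at 7.45, 6.93 and 17.6 FPKM.

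Striatal genes were the neuronal group closest to the young tumor. Of 12 measured genes 10 were higher, but only Penk and Pdyn were 2-fold higher, and the median of 0.35 was below that of the old tumor, 0.72. Penk, the gene of the opioid peptide precursor proenkephalin, was at 7.11 FPKM in the young, 22.4 in the old and 49.4 in the NMN-before tumor. Tac1, the substance P precursor, was at 1.96, 8.25 and 3.95 FPKM, and the dopamine receptor gene Drd1 at 0.431, 2.09 and 1.12 FPKM. The dopamine-receptive markers Tac1 and Drd1 thus stood highest in the old tumor.

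The parts of the synapse differed to a similar degree. All 16 measured synaptic vesicle genes were higher, 8 of them 2-fold, with a median of 0.96. Unc13a, which primes vesicles for release, was at 2.55 FPKM in the young, 4.30 in the old and 8.42 in the NMN-before tumor, and the vesicle protein gene Sv2b at 7.80, 7.67 and 22.3 FPKM. On the receiving side, 14 of 16 postsynaptic density genes were higher, 4 of them 2-fold, with a median of 0.78. The scaffold gene Shank1 was at 4.17, 4.10 and 12.2 FPKM, and Grin1, the shared subunit of NMDA receptors, at 8.34, 10.6 and 19.8 FPKM. Old-tumor medians for the vesicle and postsynaptic lists were 0.22 and 0.19.

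Voltage-gated channels followed. Among sodium and calcium channel genes 21 of 22 were higher and 6 were 2-fold higher, with a median of 0.74 beside 0.19 in the old tumor. Cacna1g, a T-type calcium channel, was at 1.99 FPKM in the young, 2.93 in the old and 9.94 in the NMN-before tumor, and the sodium channel subunit gene Scn2b at 3.17, 5.52 and 8.06 FPKM. Among potassium channel genes 19 of 21 were higher and 5 were 2-fold higher, with a median of 0.79 beside 0.25 in the old tumor, and Kcnab1, an accessory subunit, was at 2.87, 4.78 and 10.4 FPKM. Cacna1a was the only lower sodium or calcium channel gene, at 10.1, 9.88 and 8.58 FPKM; it was named after its values were seen.

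Neuropeptides and proteins of dense-core secretory granules held some of the steepest differences. Of 22 measured genes 20 were higher, 11 of them 2-fold, with a median of 0.98 against 0.39 in the old tumor. Chga, the granule protein chromogranin A, was at 7.49 FPKM in the young, 10.6 in the old and 39.9 in the NMN-before tumor, a 4.82-fold difference on the FPKM + 1 scale. Scg2, which encodes secretogranin II, was at 7.40, 15.1 and 30.4 FPKM. Trh, the thyrotropin-releasing hormone gene, was nearly silent in the young tumor at 0.107 FPKM, below the floor of 3 fragments for a transcript of 1 kb, and at 2.43 and 3.29 FPKM in the old and NMN-before tumors.

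**Figure D3:**
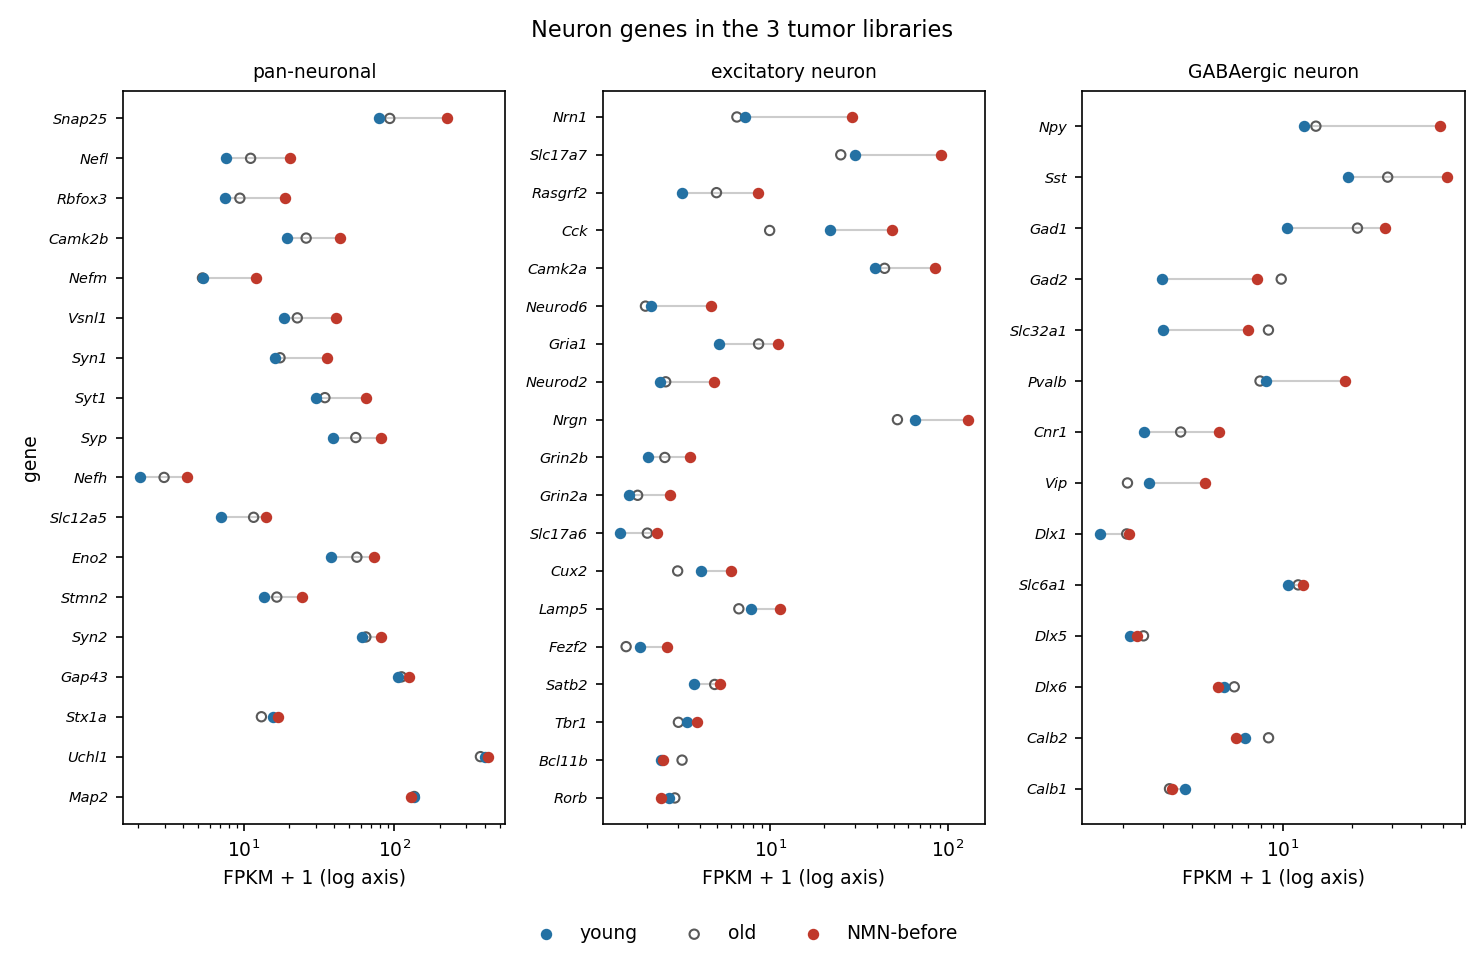
FPKM + 1 on a log axis (horizontal) of the measured pan-neuronal, excitatory and GABAergic genes, without 1 pan-neuronal gene (vertical axis, ordered by the difference) in the young (blue), old (open) and NMN-before (red) tumors, 1 library each. Red points lie to the right of blue ones for 17 of 18 pan-neuronal, 18 of 19 excitatory and 11 of 14 GABAergic genes; the open points of most pan-neuronal genes lie near the blue ones, and those of Gad2 and Slc32a1 lie to the right of the red ones.

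Excitatory, GABAergic and neuropeptide genes were mostly low in the cultured GICs, and pan-neuronal and synaptic vesicle genes less so. In the young GIC culture 17 of the 19 measured excitatory genes, 11 of the 14 GABAergic genes and 19 of the 22 neuropeptide genes were under 1 FPKM, but so were only 9 of the 19 pan-neuronal and 8 of the 16 synaptic vesicle genes. The pan-neuronal sum was 548 FPKM in the young culture, of which 1 gene made up 367, against 994 FPKM in the young tumor. The summed level of the 19 excitatory genes was 187 FPKM in the young, 168 in the old and 436 in the NMN-before tumor, against 12.6 FPKM in the young and 8.01 FPKM in the NMN-before GIC culture. The GABAergic sum was 77.6, 116 and 189 FPKM in the tumors. How much normal brain was in each piece of tissue was not measured, and its part in the difference was not tested.

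Genes switched on by neuronal activity were not higher as a group. Of 24 measured activity-induced genes 8 were higher and 16 lower, 3 and 1 of them 2-fold, and the median was -0.18, beside -0.51 in the old tumor. Junb, which the table lists on more than 1 row, was left out of this count. Of the 3 members that were 2-fold higher, Nptx2, a secreted synaptic pentraxin, was at 7.57 FPKM in the young, 3.66 in the old and 30.7 in the NMN-before tumor. Bdnf, a neurotrophin, was at 1.23, 1.32 and 4.64 FPKM, and Gadd45b, a stress and activity gene, at 9.43, 9.01 and 22.7 FPKM. At the low end, the transcription factor gene Npas4 was at 4.0003, 0.226 and 0.630 FPKM, Fosb at 6.33, 1.64 and 3.39 FPKM and the nuclear receptor gene Nr4a1 at 42.8, 26.2 and 25.7 FPKM. For Npas4 and Nr4a1 the young tumor stood apart from the other two, and for Fosb the NMN-before tumor lay between the young and the old one.

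Interferon-stimulated genes were lower in the NMN-before tumor than in the young one and, by less, lower in the old tumor too. Of 35 listed genes 31 were measured on a row of their own, and 30 of these were lower in the NMN-before tumor, 4 of them 2-fold, with a median of -0.68. The old tumor had a median of -0.39. Isg15, a ubiquitin-like modifier induced by interferon, was at 76.5 FPKM in the young, 44.5 in the old and 33.4 in the NMN-before tumor, a 2.25-fold difference on the FPKM + 1 scale. Ifit1 and Ifit3, which encode antiviral RNA-binding proteins, were at 19.9, 11.6 and 8.28 FPKM and at 42.5, 24.2 and 19.02 FPKM. In these 3 genes the levels went down from young to old to NMN-before. Mx2, a dynamin-like antiviral GTPase, was at 5.55, 3.12 and 2.17 FPKM, Usp18, which removes ISG15 from proteins, at 22.9, 14.95 and 11.3 FPKM, and Ifi27l2a at 47.4, 28.7 and 24.4 FPKM. The exception, Oas1a, was at 3.28, 3.56 and 3.97 FPKM, and the chemokine gene Cxcl10 was level at 36.9, 33.1 and 36.3 FPKM; Oas1a and Cxcl10 were named after their values were seen.

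The interferon-stimulated response element is the DNA element through which type I interferons switch on genes, and its core (GAAA, then NN for any 2 bases, then GAAA) was searched on both strands of the promoters in RefSeq, from 250 bases before to 50 bases after each start. Of the 35 listed genes 24 had a promoter in the table, and 14 of the 24 (58.3%) held the core, against 3.99% of all 27025 genes with a promoter there. The 3 promoters below are those of the interferon-stimulated genes with the largest difference; they are RefSeq sequences of GRCm38.p6, given 5′ to 3′ on the strand of the gene, with every base of a core match in capitals. The Isg15 promoter is chr4:156200769-156201068 on the minus strand and has 3 overlapping matches on the strand of the gene. The Ifit1 promoter, chr19:34640639-34640938, and the Ifit3 promoter, chr19:34583279-34583578, are on the plus strand and have 2 matches each on the opposite strand, so that the core reads in reverse complement. A match is a description of the letters and not a measured binding site. The cAMP response element was searched in the same way. It was found in 3 of the 20 activity-induced genes with a promoter there (15%), against 2.03% of all genes. In these searches and in the heat shock search below, the share describes the listed genes and not the difference between the 2 tumors.
Isg15: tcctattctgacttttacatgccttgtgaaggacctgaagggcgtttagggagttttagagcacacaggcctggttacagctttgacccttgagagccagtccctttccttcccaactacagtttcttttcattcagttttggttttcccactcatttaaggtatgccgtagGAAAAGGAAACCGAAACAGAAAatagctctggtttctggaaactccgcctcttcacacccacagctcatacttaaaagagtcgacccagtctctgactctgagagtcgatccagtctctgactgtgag
Ifit1: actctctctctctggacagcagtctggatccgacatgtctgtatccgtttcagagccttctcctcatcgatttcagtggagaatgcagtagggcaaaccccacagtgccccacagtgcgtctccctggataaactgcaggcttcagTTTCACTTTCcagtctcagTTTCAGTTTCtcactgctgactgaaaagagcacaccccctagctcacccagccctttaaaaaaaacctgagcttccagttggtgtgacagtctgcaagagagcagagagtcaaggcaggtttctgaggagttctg
Ifit3: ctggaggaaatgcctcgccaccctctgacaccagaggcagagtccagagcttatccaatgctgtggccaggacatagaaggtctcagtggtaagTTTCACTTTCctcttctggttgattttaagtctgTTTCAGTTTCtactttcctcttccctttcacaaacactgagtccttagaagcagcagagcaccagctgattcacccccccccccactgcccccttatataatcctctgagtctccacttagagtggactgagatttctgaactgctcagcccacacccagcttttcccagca

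The large GTPases that interferon-gamma induces were lower in the NMN-before tumor without being lower in the old one. All 7 GBP and IRG genes on rows of their own were lower, with a median of -0.76 beside 0.01 in the old tumor. Gbp2, a guanylate-binding protein that attacks pathogen vacuoles, was at 85.3 FPKM in the young, 85.8 in the old and 45.3 in the NMN-before tumor. Gbp5 was at 14.9, 15.02 and 8.36 FPKM and Iigp1, an immunity-related GTPase, at 18.1, 18.6 and 10.3 FPKM. Tgtp2, the only 2-fold member, was at 94.4, 77.2 and 39.5 FPKM. The young and old tumors were nearly equal in Gbp2, Gbp5 and Iigp1, and the NMN-before tumor stood alone. The other 10 listed GTPases share a row with another gene; one such row, of Igtp and Irgm2, was at 165, 163 and 79.0 FPKM and was named after its values were seen.

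Antigen presentation differed far less. All 19 measured MHC class I and antigen processing genes were lower in the NMN-before tumor, none of them 2-fold, with a median of -0.23. B2m, the shared light chain of class I molecules, was at 1134 FPKM in the young, 1159.9 in the old and 1094 in the NMN-before tumor. H2-Q4, a nonclassical class I gene, was at 68.8, 58.2 and 42.2 FPKM, and the peptide transporter gene Tap1 at 37.4, 35.5 and 28.4 FPKM. The count of 19 lower genes thus covers differences from -0.05 to -0.69. Class I genes are near-identical copies in part, and fragments may be split between them. MHC class II genes, markers of professional antigen-presenting cells, had 3 of 7 higher and a median of -0.03, with H2-Aa at 131, 139 and 103 FPKM.

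The GIC cultures, which were grown outside the host and share no library with the tumors, gave their own values for the same lists. There, 20 interferon-stimulated genes reached 1 FPKM in the young or the NMN-before culture, and 19 of them were lower in the NMN-before one, with a median of -0.93. All 5 GBP and IRG genes were lower, and so were 17 of 18 class I genes, with a median of -1.16. B2m was at 689 FPKM in the young, 547 in the old and 202 in the NMN-before culture. The class I sum was 1499 FPKM in the young and 444 FPKM in the NMN-before culture, against 3064 and 2792 FPKM in the tumors. In the cultures 2-fold higher and lower rows were 3.58% and 3.04% of 12809. How many culture rows were lower by any amount was not counted, and the median over all culture rows was not taken. The culture counts of list members, here and in later paragraphs, therefore have no such share beside them.

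**Figure D4:**
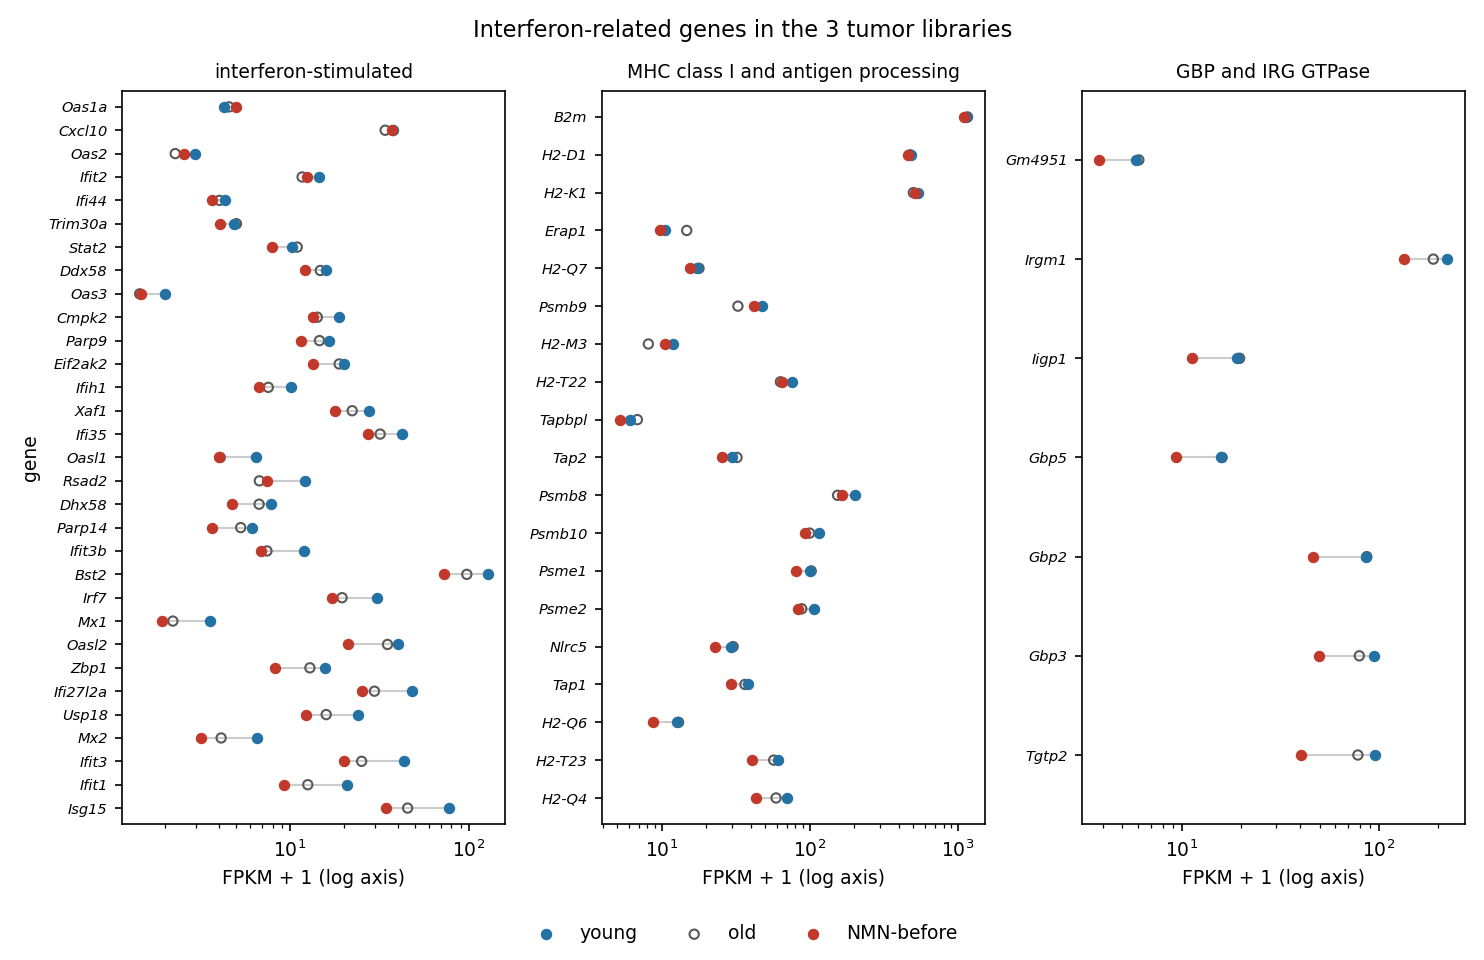
FPKM + 1 on a log axis (horizontal) of every measured interferon-stimulated, MHC class I and antigen processing, and GBP and IRG gene (vertical axis, ordered by the difference) in the young (blue), old (open) and NMN-before (red) tumors, 1 library each. Red points lie left of blue ones for 30 of 31, 19 of 19 and 7 of 7 genes; the open points of Gbp2, Gbp5 and Iigp1 lie on the blue ones.

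Oligodendrocyte genes were split. Of 19 measured myelin and oligodendrocyte genes 7 were higher and 12 lower, 2 and 4 of them 2-fold, with a median of -0.41 beside -0.09 in the old tumor. Enpp6, a phosphodiesterase that marks newly forming oligodendrocytes, was at 19.8 FPKM in the young, 10.2 in the old and 5.30 in the NMN-before tumor. Cnp, a myelin enzyme, was at 346, 193 and 139 FPKM, and Myrf, the transcription factor that starts myelin gene expression, at 11.1, 5.39 and 4.44 FPKM. Bcas1, another marker of newly forming oligodendrocytes, was at 396, 261 and 183 FPKM. In these 4 genes levels went down from young to old to NMN-before. Mobp, a protein of mature myelin, went up instead, at 24.6, 54.1 and 67.0 FPKM, and Ermn, of the outer myelin layers, was at 0.836, 3.87 and 3.33 FPKM. The 2 members higher in the NMN-before tumor by 2-fold were thus also higher in the old tumor.

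In the oligodendrocyte precursor list 14 of 15 genes were lower, with a median of -0.31 in the NMN-before and -0.31 in the old tumor. Sox10, the transcription factor of the oligodendrocyte lineage, lies at chr15:79154908-79165240 on the minus strand of GRCm38 and was the lowest coding gene of the comparison among those with at least 5 FPKM. It was at 36.3 FPKM in the young, 24.5 in the old and 7.30 in the NMN-before tumor, a 4.50-fold difference on the FPKM + 1 scale. Matn4, a matrix protein, was at 15.8, 22.02 and 7.26 FPKM and Nkx2-2, a partner of SOX10 and OLIG2, at 45.3, 29.8 and 26.8 FPKM. The other precursor genes stayed within 2-fold, with the proteoglycan gene Bcan at 298, 283 and 210.2 FPKM and Olig2 at 198, 163 and 160.1 FPKM. Sox10 therefore stood apart from the precursor genes it is usually listed with. Its level in the 3 GIC cultures was at most 0.245 FPKM, and 11 precursor genes with at least 1 FPKM in the cultures had a median of 1.22 there, NMN-before minus young, with 9 higher. The summed level of the 15 precursor genes was 2073 FPKM in the young and 1782 FPKM in the NMN-before tumor.

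Microglia markers were higher in the NMN-before tumor than in the young one, and by their median higher still in the old one. Of 20 measured microglia genes 19 were higher than in the young tumor, 3 of them 2-fold, with a median of 0.40 beside 0.60 in the old tumor. P2ry12, the purine receptor of resting microglia, was at 1.82 FPKM in the young, 5.86 in the old and 5.57 in the NMN-before tumor. Its relatives Gpr34 (0.946, 3.13 and 3.18 FPKM) and P2ry13 (1.17, 3.67 and 3.52 FPKM) had the same pattern, with the old and NMN-before tumors nearly level and the young one below. Tmem119, a surface marker of microglia, was at 8.38, 10.1 and 15.5 FPKM. Cst3, a secreted protease inhibitor named after its values were seen, was the 1 lower member, at 3292, 3541 and 2148 FPKM. Because of Cst3, the summed microglia level was lower in the NMN-before tumor, at 2866 FPKM against 3851 FPKM in the young one.

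**Figure D5:**
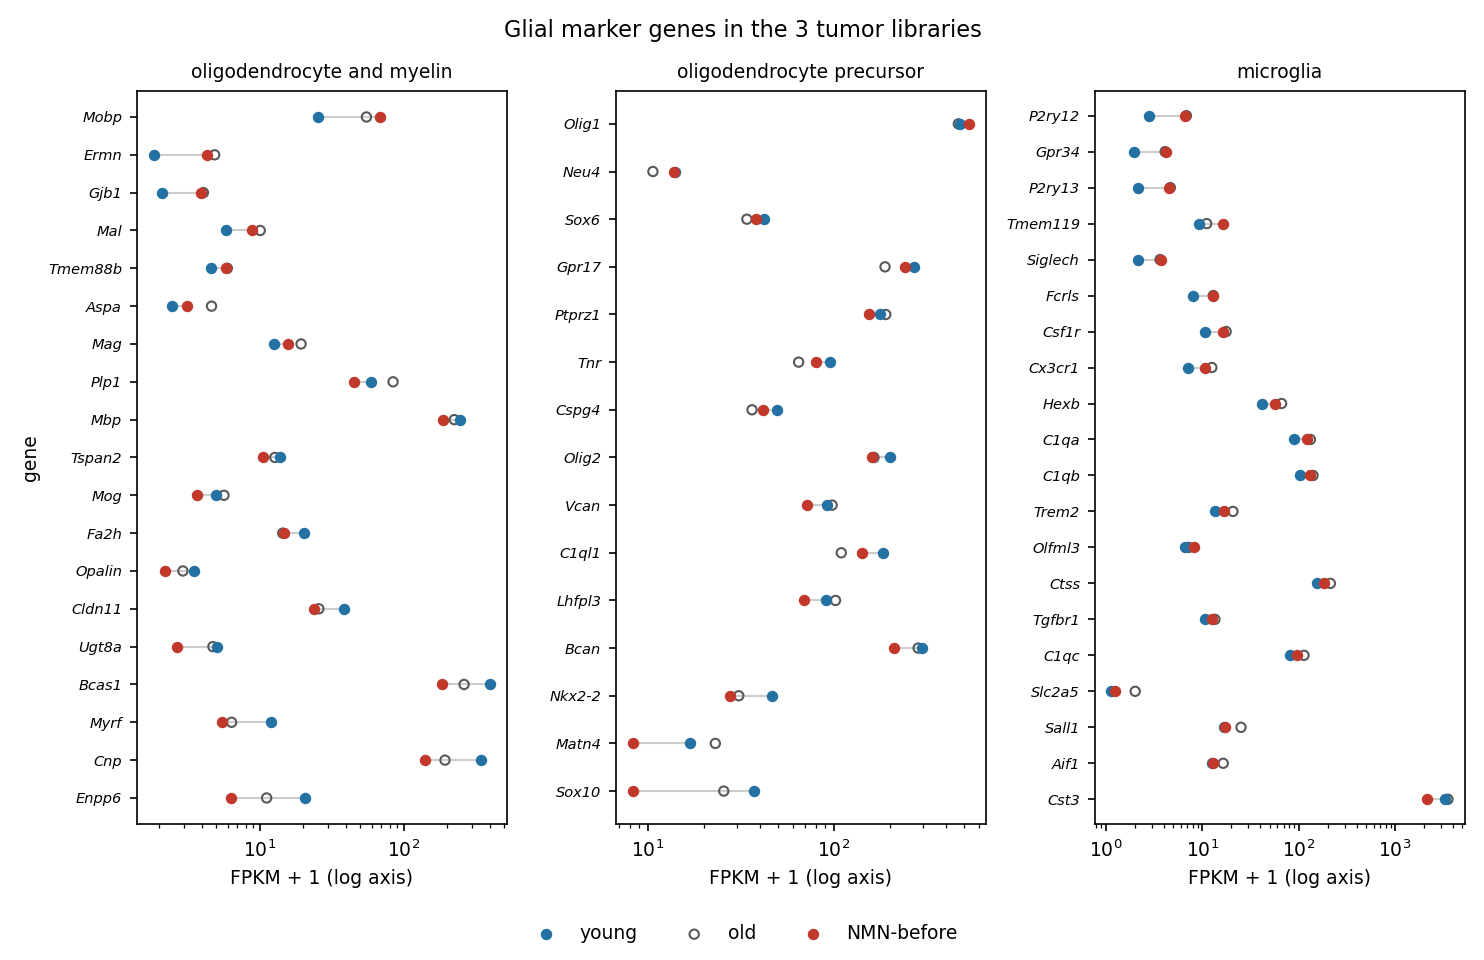
FPKM + 1 on a log axis (horizontal) of every measured oligodendrocyte and myelin, oligodendrocyte precursor, and microglia gene (vertical axis, ordered by the difference) in the young (blue), old (open) and NMN-before (red) tumors, 1 library each. Red points lie right of blue ones for 7 of 19, 1 of 15 and 19 of 20 genes; Sox10 has the widest gap of the precursor panel, and the red and open points of P2ry12, Gpr34 and P2ry13 coincide.

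Other immune markers were mixed. Disease-associated microglia genes had 9 of 18 higher, led by the cystatin gene Cst7 at 5.31 FPKM in the young, 10.1 in the old and 12.8 in the NMN-before tumor, and by Gpnmb, a lysosomal membrane protein, at 37.2, 71.3 and 70.8 FPKM. Apoe, a lipid carrier made by astrocytes and microglia, was lower at 3915, 3671 and 2265 FPKM. Of 18 monocyte and macrophage genes 13 were higher with a median of 0.27, and Mmp12, the macrophage elastase, was at 2.78, 1.40 and 8.37 FPKM. Antibody genes were higher in both old-host tumors, with the kappa light chain gene Igkc at 5.55, 77.0 and 34.1 FPKM and the IgM gene Ighm at 4.10, 34.6 and 13.6 FPKM. All 5 measured T and NK cell genes were lower with a median of -0.29, and 13 of the 21 listed were under 1 FPKM in all tumors. For Trac, the T cell receptor alpha constant gene, the levels were 2.26, 1.35 and 1.47 FPKM.

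Hemoglobin transcripts, which come from red blood cells in the tissue, were lower in the NMN-before tumor. Of 7 measured erythroid genes 6 were lower, 3 of them 2-fold, with a median of -0.99 beside 0.39 in the old tumor. Hbb-bs, a beta-globin gene, was at 111 FPKM in the young, 147 in the old and 33.2 in the NMN-before tumor, and the alpha-globin gene Hba-a1 at 32.5, 36.7 and 15.9 FPKM. Globin genes are near-identical copies, so the split between them is uncertain, but all 4 measured globin rows had the NMN-before tumor lowest. Ttr, the transthyretin gene of the choroid plexus, was at 24.0, 151 and 9.01 FPKM and 7 of the 16 listed choroid plexus genes were under 1 FPKM in all tumors. For Hbb-bs, Hba-a1 and Ttr the NMN-before tumor was below the young one and the old tumor above it.

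Vessel genes differed little. Of 22 endothelial genes 17 were higher, with a median of 0.26 beside -0.18 in the old tumor. Only Esm1, a secreted proteoglycan of sprouting tip cells, was 2-fold higher, at 3.88 FPKM in the young, 2.45 in the old and 11.3 in the NMN-before tumor. Pecam1, the pan-endothelial adhesion molecule, was at 6.49, 6.18 and 10.3 FPKM. Astrocyte genes had 8 of 18 higher with a median of -0.11 beside 0.22 in the old tumor, and a range from -0.79 to 0.51. Gfap, the intermediate filament of astrocytes, was at 2698, 2237 and 2094 FPKM. Mural cell, fibroblast and collagen lists had medians of 0.19, 0.15 and 0.13, beside -0.12, -0.33 and -0.28 in the old tumor. With a filter of 5 FPKM the collagen median turned to -0.15, with 4 of 11 genes higher.

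Chaperone genes held the highest coding gene of the comparison. Hspb1, the small heat shock protein HSP27, lies at chr5:135887919-135889563 on the plus strand of GRCm38 and was at 2.55 FPKM in the young, 2.69 in the old and 25.4 in the NMN-before tumor, a 7.43-fold difference on the FPKM + 1 scale. It was at most 0.104 FPKM in the GIC cultures. Its relative Hspb8 was at 2.90, 3.71 and 9.45 FPKM, and the inducible HSP70 gene Hspa1b at 3.19, 1.70 and 7.74 FPKM. In all, 13 of 16 measured heat shock genes were higher, 3 of them 2-fold, with a median of 0.40. With shared rows added, 16 of 19 were higher and the median was 0.23. In the cultures 12 of the genes reached 1 FPKM in the young or the NMN-before one. Of these 12 genes 2 were higher and 10 lower in the NMN-before culture, with a median of -0.36. The heat shock element (GAA, NN, TTC, NN, GAA, searched on both strands) was found in 3 of the 14 heat shock genes with a promoter in the RefSeq table (21.4%), against 0.662% of all genes. These were Hspd1, Hspe1 and Hsph1, of which Hsph1 was at 60.9, 56.6 and 91.1 FPKM in the tumors; Hspd1 and Hspe1, which share a promoter region, were named for their match.

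Genes of the integrated stress and unfolded protein response were higher without exception but by small amounts. All 18 measured genes were higher, none of them 2-fold, with a median of 0.36 beside 0.14 in the old tumor. Sdf2l1, a chaperone partner in the endoplasmic reticulum, was at 29.9 FPKM in the young, 32.3 in the old and 59.7 in the NMN-before tumor. Calr, the calcium-binding chaperone calreticulin, was at 342, 441 and 584 FPKM, and Ddit3, the transcription factor CHOP, at 32.5, 40.0 and 48.3 FPKM. The differences ran from 0.03 to 0.98. In the cultures 17 of the 18 genes were lower in the NMN-before than in the young GICs, with a median of -0.47. The cultures and the tumors therefore had opposite signs for this list.

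Hypoxia and glycolysis genes were slightly higher in the NMN-before tumor where they were lower in the old one. Of 19 hypoxia genes 13 were higher with a median of 0.27 against -0.36 in the old tumor, and Adm, the vasodilator adrenomedullin, was at 2.35 FPKM in the young, 1.35 in the old and 5.07 in the NMN-before tumor. Glycolysis genes had 12 of 19 higher with a median of 0.21 against -0.30, and Pgk1 was at 176, 143 and 232 FPKM. No measured gene of either list was 2-fold apart. Of 20 antioxidant and metallothionein genes 6 were higher and 14 lower, with a median of -0.09 beside -0.15 in the old tumor. The heme oxygenase gene Hmox1 was at 109, 57.2 and 176 FPKM, and the metallothionein gene Mt2 at 468, 293 and 310.5 FPKM.

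The enzymes that make and use NAD+ were close to the young tumor. Of 21 listed NAD+ synthesis genes 10 were measured on a row of their own, 4 higher and 6 lower, with a median of -0.10 and a range from -0.31 to 0.23. Nampt, the rate-limiting enzyme that makes NMN from nicotinamide, was at 26.5 FPKM in the young, 25.7 in the old and 31.2 in the NMN-before tumor. Nmnat2, which turns NMN into NAD+ in axons, was at 11.3, 12.8 and 13.2 FPKM, and Nmnat3 at 1.74, 2.06 and 1.30 FPKM. No synthesis gene reached a 2-fold difference. Among NAD+ consuming genes 10 of 12 were lower with a median of -0.18, led by Parp14 (5.16, 4.30 and 2.67 FPKM) and Parp9 (15.5, 13.6 and 10.5 FPKM), both of which are also on the interferon-stimulated list. Sirt1, the nuclear NAD+-dependent deacetylase, was level at 4.69, 5.47 and 4.86 FPKM. Sirt2, which is abundant in myelin, was just short of 2-fold lower at 285, 166 and 144 FPKM, a difference of -0.98, and the other 4 measured sirtuins lay between -0.26 and 0.06.

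Cell cycle, mesenchymal and stem cell lists had medians near those of the young tumor, and proneural genes were mostly lower. Mitosis genes had 10 of 21 higher, with a median of -0.05 against -0.34 in the old tumor, and DNA replication genes 14 of 22 higher, with a median of 0.05 against -0.23. Cdk1, the kinase that drives entry into mitosis, was at 82.9 FPKM in the young, 80.4 in the old and 99.5 in the NMN-before tumor. The mesenchymal glioma list had a median of -0.02 and the stem and progenitor list one of -0.09. Of 16 proneural glioma genes 3 were higher and 13 lower, 1 of them 2-fold, with a median of -0.32 beside -0.11 in the old tumor. Egfr was at 15.3, 19.7 and 11.8 FPKM and the stem cell filament gene Nes at 40.5, 35.4 and 32.6 FPKM. The cell cycle inhibitor gene Cdkn1a was at 24.8, 24.2 and 34.4 FPKM, Cdkn2a at 146, 133 and 154 FPKM and Trp53 at 60.0, 59.4 and 50.1 FPKM. Within the stem list Mdk, the growth factor midkine, was the exception at 25.1, 31.3 and 6.84 FPKM. Each of the mitosis, replication, mesenchymal and stem lists had at most 1 member that was 2-fold apart.

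Ribosomal protein and respiratory chain lists were near 0 as well. Ribosomal proteins had 13 of 27 higher and a median of -0.01, whose sign turned to 0.01 when values were rescaled to TPM. Respiratory chain subunits had 9 of 29 higher with a median of -0.06 and a range from -0.22 to 0.18. Genes of the mitochondrial genome, counted on a list of their own, were higher. Only mt-Nd6 had its own row, at 30.7 FPKM in the young, 22.9 in the old and 56.8 in the NMN-before tumor. With shared rows added, 4 of 4 rows of that list were higher, with a median of 0.56.

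Several of the lowest genes were ones in which the young tumor alone stood apart. On chromosome 15, Rrp7a, a ribosome assembly factor, was at 271 FPKM in the young, 58.1 in the old and 62.1 in the NMN-before tumor. Serhl, whose annotated span overlaps that of Rrp7a on the opposite strand, was at 51.9, 20.9 and 13.9 FPKM, and fragments of the pair may not be separable. Elsewhere on the chromosome Fam49b, a regulator of actin dynamics, was at 152, 46.2 and 53.2 FPKM, and its neighbor Asap1, an ARF GTPase activator, at 49.1, 17.5 and 20.2 FPKM. Myc, the oncogene on the same chromosome, was at 383, 217 and 227 FPKM. Its span begins at position 61985341, and those of Fam49b and Asap1 begin at 63929097 and 64086857. In Rrp7a, Fam49b, Asap1 and Myc the old and NMN-before tumors were alike and both below the young one. The 391 coding genes of chromosome 15 with at least 5 FPKM had a median of -0.02. A median over the whole chromosome cannot show a difference of a short stretch, and the part of position was not tested.

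In a different set of genes the NMN-before tumor was the highest of the 3 tumors. Inhba, the activin A subunit, was at 0.384 FPKM in the young, 0.384 in the old and 6.70 in the NMN-before tumor. Hs3st2, a brain enzyme that sulfates heparan sulfate, was at 0.933, 1.34 and 8.11 FPKM, and Hpcal4, a neuronal calcium sensor, at 14.4, 15.9 and 61.8 FPKM. Cyct, the testis form of cytochrome c, was at 3.02, 3.49 and 23.4 FPKM, but it resembles the abundant Cycs closely enough that fragments may be misassigned, so its value is uncertain. Il33, an alarmin of glial cells, was at 3.10, 6.32 and 15.1 FPKM. Klk6, a protease of oligodendrocytes, was at 0.840, 4.39 and 9.94 FPKM and Ptgs1, cyclooxygenase 1, at 2.33, 6.17 and 12.6 FPKM. For Il33, Klk6 and Ptgs1 the old tumor lay between the young and the NMN-before one. In Klk6 and Ptgs1 the old tumor was itself 2-fold above the young one, with differences of 1.55 and 1.11. Against the young tumor alone, 187 coding genes with at least 5 FPKM were 2-fold higher. Of these, 40 were on the neuron lists and 54 on any list. Of the 34 that were 2-fold lower, 15 were on a list: 6 on the oligodendrocyte, precursor or proneural lists, 4 on the interferon, GBP and IRG or class I lists and 3 on the erythroid list. Among the 14335 rows compared, the neuron lists had 147 measured genes and all lists 851. The oligodendrocyte, interferon and erythroid groups of lists had 45, 57 and 7. The share of list genes among all 9294 coding genes with at least 5 FPKM was not counted. The counts above therefore do not show whether any list was over-represented. The lists were also chosen with earlier results of these data known.

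Most genes that separated the 2 tumors were low in cultured GICs. Of the 267 coding genes 2-fold higher in the NMN-before tumor, 191 (71.5%) were under 1 FPKM in all 3 GIC cultures, and of the 54 lower ones 31 (57.4%). Over all 11915 coding genes compared that also had a row of their own in the culture table, the share was 13.4%. Of 11471 rows compared in both tables, 147 were 2-fold higher in the NMN-before tumor and 387 in the NMN-before culture, and 12 were higher in both, which is 8.16% of the tumor rows and 3.10% of the culture rows. Lower in both were 10 rows, 14.3% of the 70 tumor rows and 3.41% of the 293 culture rows, and among them were the coding genes Isg15 and Tgtp2; the other 8 were snoRNA, pseudogene or unmatched rows listed at 0 in the NMN-before tumor. Opposite directions were more frequent than shared ones. Of the 147 rows 2-fold higher in the tumor, 30 were 2-fold lower in the culture. Of the 70 rows lower in the tumor, 15 were higher in the culture. Most of these 15 were short RNA or pseudogene rows listed at 0 in the NMN-before tumor. Some of the 30 were rows listed at 0 in the young tumor. The culture values of Isg15 were 4.89 FPKM in the young, 3.04 in the old and 0.98 in the NMN-before culture.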

How the data were processed

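The data are RNA-seq libraries of 6 mouse samples, each the only one of its group; the young and the NMN-before tumor were compared, and the old tumor and 3 GIC cultures served as side values. Per the labels' protocols, total RNA was depleted of ribosomal RNA and made into stranded libraries for paired-end sequencing. Per the submitters' processing notes, reads were handled with Trim Galore 0.6.2 and bcl2fastq 1.8.4, and with Cuffdiff, Cufflinks 2.2.1 and STAR 2.5.4b on GRCm38. The authors deposited FPKM values, scaled for transcript length and depth, with tumors and cultures in separate tables. The annotation, the normalization mode and the use of strand in counting are not stated, so overlapping genes and near-identical copies are uncertain.

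Differences are on the log2(FPKM + 1) scale, with a pseudocount of 1, over rows with at least 1 FPKM in any tumor. With 1 library per group there is no SD or test, and 2-fold is a rule of size. The 2 tables were treated as normalized separately, and differences were taken within a table. Lists used rows that name 1 gene. The members and the gene lists were chosen with earlier results of these data known.

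Genes named in the text are the 20 highest and 20 lowest protein-coding rows that reached 5 FPKM in either tumor of the pair, up to 6 members per list by size of difference, and 16 fixed genes; exceptions are marked, and some genes are not reported here. GENCODE M21 supplied gene types and coordinates, and RefSeq (GRCm38.p6) the promoters. Depth was recovered from low FPKM values as whole multiples of 1 fragment, which held within 0.05 for 96.9% to 98.2% of values over tumors and cultures. The difference and depth steps were tested on simulated data. Alternatives were pseudocounts of 0.1 and 0.5, no filter, a filter of 5 FPKM, median-of-ratios scaling, TPM, protein-coding rows only and, for lists, the addition of shared rows; 2 more were chosen after seeing the data. Python 3.11.15, numpy 2.4.6, pandas 2.3.3 and scipy 1.17.1 were used.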

Additional observations from a re-analysis of the deposited data

Results flagged for a closer look

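In 9 protein-coding genes described here, with at least 5 FPKM in the young or the NMN-before library of each table, the NMN-before library was 2-fold apart from the young one in opposite directions in tumors and in GIC cultures. Each direction rests on 1 library against 1, and the difference between tumors and cultures was not tested. Cirbp, a cold-inducible RNA-binding protein, had a log2 difference of -1.14 in tumors and 1.19 in cultures. The other 8 genes were higher in the tumor and lower in the culture. Genes known from neurons made up 5 of them. Vgf, a secreted neuropeptide precursor, had 1.02 in tumors and -1.24 in cultures. For Hapln4, a link protein of perineuronal nets, the values were 1.07 and -1.37. Rgs8, a regulator of G protein signaling, had 1.07 and -1.83, Frrs1l, which helps to build AMPA receptors, 1.17 and -1.32, and Stac2, an adaptor of calcium channels, 1.85 and -1.77. The remaining 3 were Hspa1b, the inducible HSP70 (1.06 and -1.74), Mical2, an actin-modifying enzyme (1.16 and -1.62), and Crabp2, a retinoic acid carrier (1.33 and -1.30).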

How the results depend on the processing

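With a pseudocount of 0.1, 859 rows were 2-fold higher and 306 lower in the NMN-before tumor, against 400 and 140 with a pseudocount of 1; with 0.5, 611 were higher. A smaller pseudocount lets rows of low level pass the rule. A filter of 5 FPKM left 265 and 83, protein-coding rows alone had 54 lower and 83.18% of 2-fold rows higher against 74.1%, and without rows at 0 in 1 of the 2 libraries, chosen after seeing the data, 86 were lower and 80.14% of 2-fold rows were higher. These settings test fewer rows. With the 5 FPKM filter the share of measured list members that were higher became 100% for the excitatory neuron list and 100% for the striatal list, and 0% for the interferon-stimulated, S100, ependymal, choroid plexus, and neutrophil and mast cell lists, the last with 1 gene left. For collagen genes it became 36.36%, which turned the direction. Of the medians, those of the neutrophil, collagen and chemokine lists changed sign with that filter, that of ribosomal proteins with TPM, and those of the disease-associated microglia, matrix glycoprotein and sex-linked lists with shared rows added. No named gene turned direction under the pseudocount of 0.1, median-of-ratios scaling or TPM, and 27 of 344 passed the 2-fold rule only with the pseudocount of 0.1. No paired analysis was possible because each group has 1 library, and no library could be left out.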

Other observations

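The values below were chosen after they were seen and carry no explanation. The 4 short RNAs named next, all made by RNA polymerase III, were higher in the NMN-before tumor than in either other tumor. Rn7sk, the RNA that holds the elongation factor P-TEFb inactive, was at 9.65 FPKM in the young, 7.37 in the old and 89.3 in the NMN-before tumor. Rpph1, the RNA of ribonuclease P, was at 2.73, 2.58 and 14.1 FPKM, Rmrp at 4.84, 2.84 and 13.8 FPKM and the Y RNA Rny3 at 79.9, 76.9 and 234 FPKM. In the GIC cultures Rn7sk went the other way, at 19.8, 16.8 and 6.11 FPKM, and so did Rpph1, at 27.4, 27.1 and 4.27 FPKM, and Rmrp, at 5.50, 4.82 and 0.709 FPKM. Rny3 was at 29.3 FPKM in the young, 192 in the old and 48.4 in the NMN-before culture, higher than in the young one as in the tumors. FPKM of such short RNAs depends on the fragments kept in library preparation. The small nucleolar RNAs Snord32a and Snord55 were listed at 0 in the young and old tumors and at 262 and 186 FPKM in the NMN-before tumor, while Snord49b was at 457 FPKM in the young tumor and listed at 0 in the other tumors.

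Both cold-inducible RNA-binding protein genes were lower. Cirbp was at 74.8 FPKM in the young, 58.4 in the old and 33.5 in the NMN-before tumor, and Rbm3 at 317, 228 and 151 FPKM. The long noncoding RNA row of Neat1, which also names Gm27702, was at 166, 87.0 and 59.8 FPKM.

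The row of Xist, the RNA of the inactive X chromosome, which also names Gm27733 and Gm27927, was at 8.54, 16.5 and 21.3 FPKM in the tumors and between 0.0894 and 0.512 FPKM in the cultures. The Y-linked gene Ddx3y was at 23.1, 21.2 and 24.7 FPKM and Eif2s3y at 60.1, 50.8 and 33.8 FPKM. The sex of hosts and of the cell line is not stated in the labels.

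The row of Spp1, the secreted matrix protein osteopontin, with Gm42793 was at 21.2 FPKM in the young, 41.5 in the old and 61.4 in the NMN-before tumor, and at 237, 97.3 and 40.9 FPKM in the cultures. The row of S100a4, a calcium-binding protein of migrating cells, with S100a3 and Gm42674 was at 157, 107 and 73.4 FPKM in the tumors. The fibrillar collagen genes Col1a1 (3.87, 0.737 and 4.50 FPKM) and Col1a2 (3.99, 1.29 and 4.47 FPKM) were lowest in the old tumor.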
